A study of Mus musculus with 10 samples.

Results

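The genes described here are those of hepcidin and iron handling in mouse liver: the hormone gene Hamp, the plasma iron carrier transferrin, the receptors and sensors Tfrc, Tfr2 and Hfe, the ferritin genes Fth1 and Ftl1, the iron transporter genes Slc11a2 and Slc39a14, and the ferroxidase gene Cp. They were taken by symbol from a table of 29657 genes. Of the 10, 9 matched by symbol, and transferrin was found as Trf, for which RefSeq gives Tf as a synonym. All 10 passed the filter on low values, which asked for 0.5 FPKM or more in 5 or more libraries and kept 13471 genes. FPKM scales fragment numbers by the length of the transcript and the size of the library, so levels can be compared approximately between genes. A remaining trend with length is described below.

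Liver RNA came from 10 C57BL/6 mice. All 10 were kept for 8 weeks on CDAHFD, a choline-deficient, high-fat diet with defined amino acids that produces fatty liver with inflammation and fibrosis, so no liver on ordinary chow is part of the comparison. The tested mice (n = 5) were given AAV8-TBG-galectin-3 intravenously, and the design text calls them a liver knockdown of galectin-3. The TBG promoter drives expression in hepatocytes and not in other liver cells. What the virus carries to lower galectin-3 is not described. The control mice (n = 5) were given AAV8-NC, a negative control virus, and are labelled wild type. The targeted transcript, Lgals3, averaged 74.2 ± 20.1 FPKM in the first group and 70.8 ± 22.9 FPKM in the control livers (SD, n = 5 each; log2 fold change 0.08, SE 0.25, limma adjusted p = 0.856). Because Lgals3 in whole liver RNA did not follow the label, the first group is called labelled knockdown. Each direction below rests on the labels. The Lgals3 values do not separate hepatocytes from other liver cells.

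The libraries held 21653 to 23079 genes above 0. Hepatocyte markers were the most abundant of the cell type markers, with Alb, the albumin gene, at 25337 ± 2366 FPKM in labelled knockdown livers and 28429 ± 1857 FPKM in control livers. Of the 8 hepatocyte markers, Apob (log2 fold change -0.54, limma adjusted p = 0.00941) and Cps1 (-0.71, 0.00944) fell, Ttr rose (0.40, 0.0268), and the other 5, Alb among them, did not pass. Their part in the results below was not tested. Over all tested genes, 16.8% passed the limma test (adjusted p under 0.05), 960 higher and 1300 lower in labelled knockdown livers, a split that became 1240 higher and 1060 lower with median-of-ratios scaling. Values also moved with transcript length. Per doubling of length, a library departed from the gene means by -0.059 to -0.007 on the log2 scale in labelled knockdown livers and by 0.019 to 0.046 in control livers, with no overlap.

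Hepcidin, the product of Hamp, is a peptide that hepatocytes release into the blood. It binds the iron exporter ferroportin and removes it from the cell surface, so that less iron reaches the plasma. Its transcription rises with iron, through bone morphogenetic protein (BMP) receptors and SMAD proteins, and with inflammation, through interleukin-6 and STAT3. Inside cells, iron regulatory proteins bind iron-responsive elements, hairpins in the untranslated regions (UTRs) of several iron genes, and set translation or mRNA decay by the iron supply.

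The promoter of Hamp is shown because both inputs act on it. These are the 250 bases before the RefSeq start of Hamp on GRCm38.p6, chr7:30944030-30944279, minus strand, written 5′ to 3′, with capitals for the letters GGCGCC, the core of a BMP-responsive element, and for a match to TTCNNNGAA, the pattern bound by STAT proteins.
Hamp promoter: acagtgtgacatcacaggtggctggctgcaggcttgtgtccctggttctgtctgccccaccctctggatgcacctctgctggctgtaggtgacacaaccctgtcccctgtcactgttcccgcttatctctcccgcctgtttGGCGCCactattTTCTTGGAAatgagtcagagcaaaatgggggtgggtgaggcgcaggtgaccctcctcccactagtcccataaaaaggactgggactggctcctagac
The first match starts 109 bases and the second 97 bases before the start of transcription. Searched on both strands of 32851 RefSeq promoters of the same length, GGCGCC was present in 9.59% and TTCNNNGAA in 7.02%. Among the other members with a promoter in that table, GGCGCC was found in 1 of 2 promoters of Tfrc, and neither pattern was found in those of Tfr2, Hfe, Fth1, Ftl1 or Cp. Trf, Slc11a2 and Slc39a14 had no entry.

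The iron-responsive elements are shown because they tie Fth1, Ftl1 and Tfrc to the cell's iron. Elements of 26 bases were found in GENCODE M21 transcripts (GRCm38) as CAGTG followed by A, C or T, flanked by 5 paired bases on each side and an unpaired C before the stem. The 6 bases of the loop are in capitals. The first 3 elements lie in 5′ UTRs and the 4 of Tfrc in its 3′ UTR. The Fth1 element was found in 4 of 5 coding transcripts searched and that of Ftl1 in 1 of 2. That of Slc40a1 was found in 1 of 4, and each of Tfrc in 1 of 3. Slc40a1, which encodes ferroportin, is added for comparison.
Fth1: cctgcttcaaCAGTGCttgaacggaa
Ftl1: cttgcttcaaCAGTGTttgaacggaa
Slc40a1: acttcagctaCAGTGTtagctaagtt
Tfrc, element: atatcggagaCAGTGAtctccatatg
Tfrc, element: ttatcggaagCAGTGCcttccataat
Tfrc, element: ttatcgggaaCAGTGTttcccataat
Tfrc, element: ttatcgggagCAGTGTcttccataat
The pattern was present in a UTR of 0.557% of 21901 protein-coding genes. The 2 ferritin elements share the stem letters next to the loop. The search matched 0 elements in the other members, and it covers this strict form alone.

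Of the 10 members, 2 fell in labelled knockdown livers, the zinc and iron importer gene Slc39a14 and the ferroxidase gene Cp, and 0 rose (limma, adjusted p under 0.05). Over all tested genes 9.65% were lower and 7.13% higher. The hormone gene Hamp varied more between mice of 1 group than between the groups. The median log2 fold change of the members was -0.12, beside -0.04 over all tested genes. Neither call is firm: each was lost with no filter on low values, with median-of-ratios scaling, with the length trend removed and with the replicate number as a block. The values stand beside each gene below, and those of the block in the closing section.

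Hamp (ENSMUSG00000050440) was listed at 1825, 641, 469, 1646 and 1282 FPKM in labelled knockdown livers 1 to 5, against 797, 636, 929.6, 642 and 1411 FPKM in control livers 1 to 5. Livers 1, 4 and 5 of the labelled knockdown group and control 5 were high, and the groups overlapped over most of their range. The mean was 1173 ± 599.8 FPKM in labelled knockdown livers and 883 ± 319 FPKM in control livers (SD, n = 5 each). The coefficient of variation was 51.1% in labelled knockdown livers and 36.1% in control livers, the largest of the 10 members in each group. The log2 fold change of 0.29 (SE 0.37) did not pass the limma test (adjusted p = 0.623). Its 95% interval ran from 0.692-fold to 2.15-fold for the difference between the groups. Leaving out 1 library moved the log2 fold change between 0.08, without labelled knockdown 1, and 0.57, without labelled knockdown 3, and no such fit called Hamp (adjusted p from 0.260 to 0.902).

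Hamp2, a neighbouring copy of Hamp, was listed at 50.0, 39.3, 64.1, 43.7 and 42.5 FPKM in labelled knockdown livers, against 28.5, 11.1, 14.6, 22.6 and 112 FPKM in control livers. Control 5, also the control liver with the most Hamp, stood above all labelled knockdown livers, and the other control libraries stood below them. The log2 fold change was 0.83 (SE 0.48, limma adjusted p = 0.252). Without control 5 it was 1.34 with an adjusted p of 0.0129, and with array weights 1.32 with 0.0277. No other fit called Hamp2, which makes 1 of 10 fits without 1 library and 1 of 9 other settings. With the length trend removed its log2 fold change was 0.65 with an adjusted p of 0.394. Hamp2 amounted to 1.57% to 13.7% of the Hamp level in single livers, and reads shared between these similar copies could be split in quantification.

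The 5 genes whose departures from their group means were most like those of Hamp over the 10 libraries, among 10154 named genes averaging 1 FPKM or more, were Mpi, Zfp146, Mef2d, Ppp1r3e and Xpot. Their Pearson correlations with Hamp ranged from 0.916 to 0.941 on the log2(FPKM + 1) scale. Being the highest of 10154 values over 10 libraries, these correlations owe part of their size to that choice, and they were not tested. The libraries share diet and processing, and the correlations describe the 10 livers alone. None of the 5 passed the limma test between the groups, with adjusted p from 0.250 to 0.992.

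**Figure D1:**
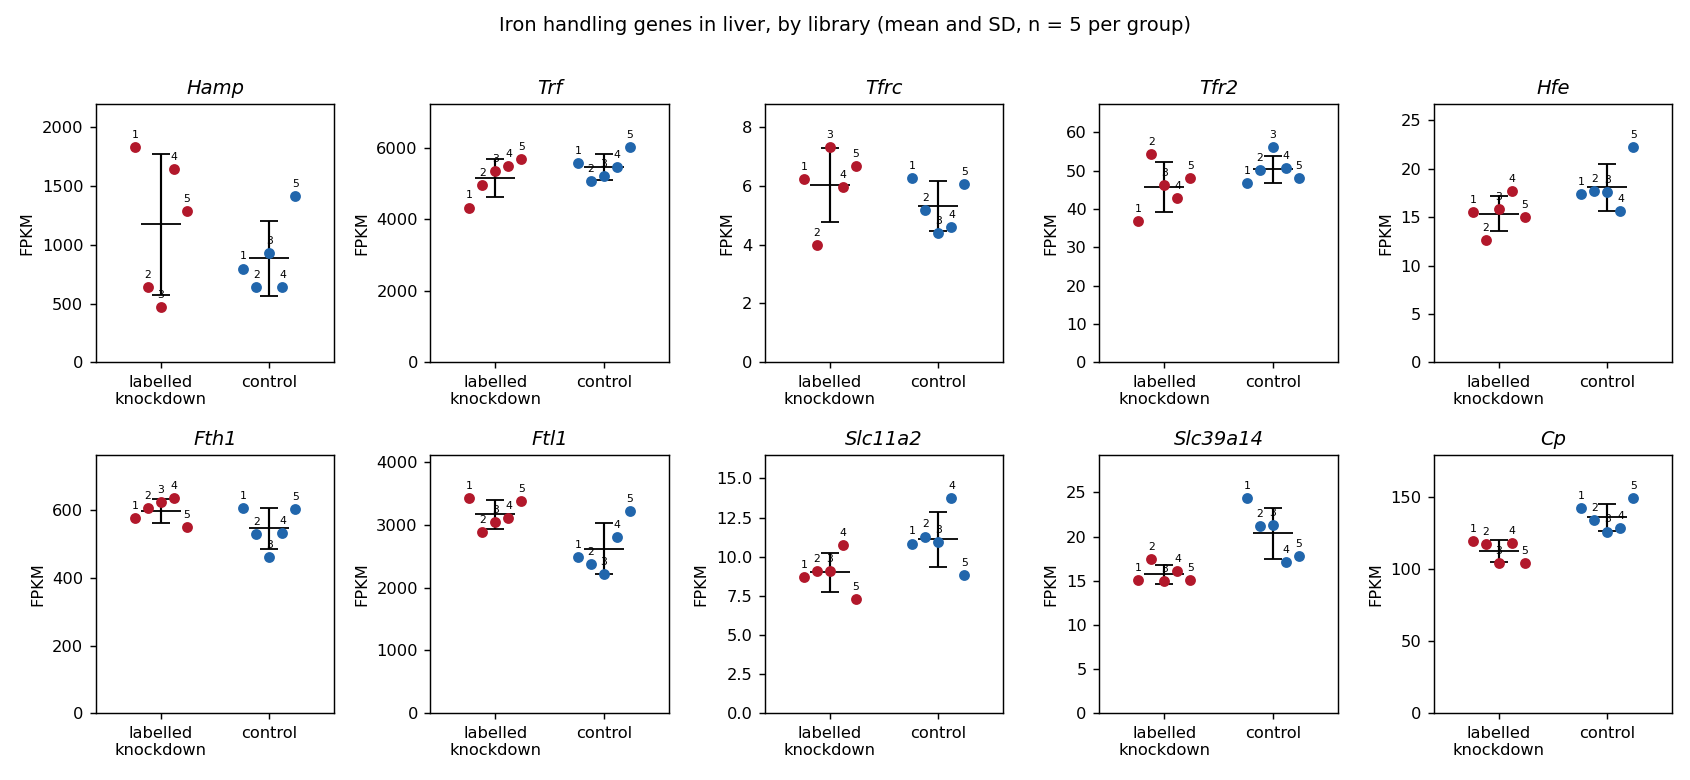
FPKM of the 10 iron handling genes in each liver, with labelled knockdown livers (red) left of control livers (blue), replicate numbers above the points, and bars for the mean and SD (n = 5 per group). Hamp runs from 469 to 1825 FPKM among labelled knockdown livers, and Cp is the member whose groups do not overlap, at 104 to 119.8 FPKM in labelled knockdown livers against 126 to 149 FPKM in control livers.

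The sensors come next. Tfr2, the transferrin receptor of hepatocytes through which plasma iron is sensed, was listed at 36.8, 54.4, 46.2, 42.7 and 48.1 FPKM in labelled knockdown livers, against 46.7, 50.2, 56.0, 50.7 and 48.0 FPKM in control livers. The groups overlapped, with a log2 fold change of -0.15 (SE 0.10, limma adjusted p = 0.335, interval 0.775-fold to 1.05-fold). Hfe, a partner of the transferrin receptors whose loss causes iron overload, was listed at 15.5, 12.7, 15.9, 17.7 and 15.1 FPKM in labelled knockdown livers, against 17.4, 17.7, 17.6, 15.6 and 22.2 FPKM in control livers. All 5 labelled knockdown values of Hfe lay below the control mean, but livers 3 and 4 lay inside the control range. Its log2 fold change of -0.22 (SE 0.10) did not pass the limma test (adjusted p = 0.162, interval 0.732-fold to 1.01-fold).

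Trf, the carrier of iron in plasma, had the highest level of the 10 members and ranked 7 among all tested genes by mean FPKM. It was listed at 4332, 4971, 5351, 5487 and 5689 FPKM in labelled knockdown livers, against 5577, 5072, 5225, 5469 and 6013 FPKM in control livers. Liver 1 of the labelled knockdown group was the lowest, and the other values of both groups were mixed. The log2 fold change was -0.09 (SE 0.11, limma adjusted p = 0.631, interval 0.791-fold to 1.12-fold). Tfrc, the receptor that brings transferrin iron into cells, was listed at 6.23, 3.98, 7.30, 5.96 and 6.68 FPKM in labelled knockdown livers, against 6.27, 5.18, 4.38, 4.59 and 6.07 FPKM in control livers. Both the lowest and the highest value were in labelled knockdown livers, and the log2 fold change of 0.15 (SE 0.14) did not pass the limma test (adjusted p = 0.485, interval 0.897-fold to 1.37-fold).

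Slc39a14, also called Zip14, takes up zinc and iron that is not bound to transferrin. It was listed at 15.1, 17.5, 15.0, 16.1 and 15.1 FPKM in labelled knockdown livers, against 24.3, 21.2, 21.4, 17.2 and 17.9 FPKM in control livers. Only labelled knockdown 2 reached above the lowest control, so the groups overlapped by that liver. The fall had a log2 fold change of -0.34 (SE 0.10, limma adjusted p = 0.0349, interval 0.681-fold to 0.913-fold). It was called in 4 of the 10 fits without 1 library, and was lost without labelled knockdown 1 (0.0677), 3 (0.0740) or 5 (0.0690) or without control 1 (0.0649), 2 (0.0789) or 3 (0.0782). The adjusted p was 0.0539 with median-of-ratios scaling, 0.0699 with no filter on low values and 0.118 with the length trend removed, where the log2 fold change was -0.23.

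Cp, the ceruloplasmin gene, encodes a copper protein of plasma that oxidizes iron so that transferrin can bind it. It was listed at 119.8, 118, 104, 118 and 105 FPKM in labelled knockdown livers, against 142, 134, 126, 128 and 149 FPKM in control livers. Each labelled knockdown liver stood below each control liver, a separation seen in 13.1% of all tested genes. The fall had a log2 fold change of -0.27 (SE 0.08, limma adjusted p = 0.0408, interval 0.737-fold to 0.937-fold). It was called in the fits without labelled knockdown 1 (0.0483) or 4 (0.0427), and not in the other 8 fits without 1 library, where the adjusted p was 0.0574 to 0.0965. The adjusted p was 0.0673 with median-of-ratios scaling, 0.0580 with no filter on low values and 0.157 with the length trend removed, where the log2 fold change was -0.16. In the authors' deposited table the q-values of Cp and Slc39a14 were 0.0427 and 0.0459, and neither gene was marked as significant there.

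Slc11a2, also called DMT1, moves ferrous iron across the membranes of the gut and of endosomes. It was listed at 8.73, 9.07, 9.12, 10.8 and 7.29 FPKM in labelled knockdown livers, against 10.8, 11.3, 10.96, 13.7 and 8.81 FPKM in control livers. All 5 labelled knockdown livers lay below the control mean, but control 5 was as low as they were and the groups overlapped. The log2 fold change of -0.28 (SE 0.12) did not pass the limma test (adjusted p = 0.1199), but it did without control 5 (-0.35, adjusted p = 0.0487) and with array weights (-0.31, 0.0374). In all, Slc11a2 was called in 1 of 10 fits without 1 library and in 2 of 9 other settings. With the length trend removed its log2 fold change was -0.17 with an adjusted p of 0.299. Gene-level FPKM does not separate the transcripts of Slc11a2 with and without an iron-responsive element.

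Ferritin, the shell that stores iron, is built of heavy chains, which oxidize iron, and light chains, which favour its deposition as mineral. Fth1, the heavy chain gene, was listed at 578, 606, 626, 636 and 549.7 FPKM in labelled knockdown livers, against 608, 531, 462, 533 and 605 FPKM in control livers. Controls 1 and 5 stood within the labelled knockdown range, and the log2 fold change was 0.13 (SE 0.10, limma adjusted p = 0.359, interval 0.947-fold to 1.27-fold). Ftl1, the light chain gene, was listed at 3415, 2879, 3046, 3099 and 3369 FPKM in labelled knockdown livers, against 2487, 2375, 2207, 2804 and 3218 FPKM in control livers. Control 5 stood within the labelled knockdown range and the other control livers below it. The log2 fold change of 0.28 (SE 0.12) did not pass the limma test (adjusted p = 0.131, interval 1.01-fold to 1.46-fold), but without control 5 it was 0.36 with an adjusted p of 0.0436. Ftl1 was called in that 1 of the 10 fits without 1 library and in 0 of 9 other settings. With the length trend removed its log2 fold change was 0.17 with an adjusted p of 0.386.

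Ferritin light chain has processed copies in the genome whose reads can be shared with Ftl1. Of these, Ftl1-ps1 averaged 50.8 ± 3.70 FPKM in labelled knockdown livers and 38.9 ± 5.40 FPKM in control livers (SD, n = 5 each), with no overlap, and rose (log2 fold change 0.38, SE 0.10, limma adjusted p = 0.0266). Ftl2-ps averaged 22.4 ± 1.76 FPKM in labelled knockdown livers and 18.0 ± 3.02 FPKM in control livers (log2 fold change 0.32, adjusted p = 0.0594). How far these values are reads of Ftl1 was not tested. The level of Ftl1 was 5.31 ± 0.658 times that of Fth1 in labelled knockdown livers and 4.79 ± 0.520 times in control livers, both per length.

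By mean FPKM over the 10 livers, the order was Trf (5319), Ftl1 (2890.0), Hamp (1028), Fth1 (573), Cp (124), Tfr2 (48.0), Slc39a14 (18.1), Hfe (16.7), Slc11a2 (10.1) and Tfrc (5.66). The ranges of Hamp and Fth1 overlapped, as did those of Slc39a14 and Hfe, of Hfe and Slc11a2, and, by a small margin, of Slc11a2 and Tfrc. The other neighbours in this order did not overlap in range.

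**Figure D2:**
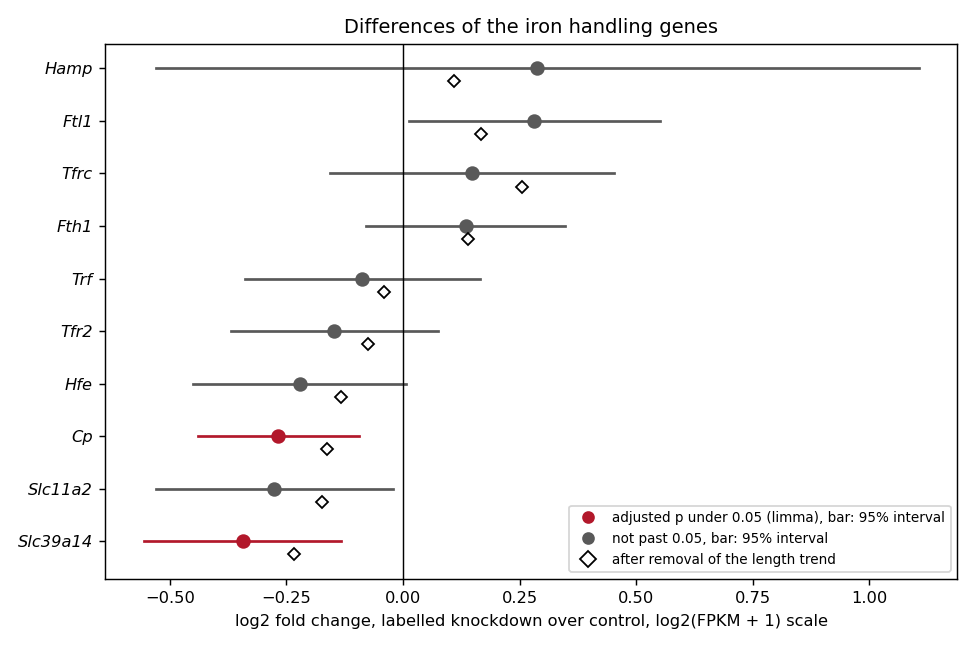
Log2 fold change of each member, labelled knockdown over control livers, on the log2(FPKM + 1) scale, with the 95% interval of the limma fit (n = 5 per group). Slc39a14 (-0.34) and Cp (-0.27), in red, passed the test, and the open diamonds show both nearer to 0, at -0.23 and -0.16, after removal of the trend with transcript length in each library.

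The other genes of the pathway were taken from 6 lists of 97 symbols, of which 96 were in the table and 89 were tested. Of the 89, 8 were higher and 17 lower in labelled knockdown livers, 28.1% in all beside 16.8% of all tested genes, with a median log2 fold change of -0.12. With the length trend removed 6 were higher and 7 lower, 13 of 89 in all, beside 12.2% of 13187 genes over the whole table, so the 2 shares lay close together in that fit. With median-of-ratios scaling 10 of the 89 were higher and 12 lower, beside 1240 higher and 1060 lower of 13471 genes, so the lists kept a larger share there. In the lists below, the shares to read the counts against are 9.65% lower and 7.13% higher, or 5.46% lower and 6.78% higher with the length trend removed. The genes that fell included Il6st, Stat3, Bmpr1a and Smad4, which carry signals to Hamp, both iron regulatory protein genes and Ncoa4, the receptor for ferritin breakdown. Of the 8 that rose, 2 encode enzymes of heme synthesis and 3 encode proteins of iron-sulfur cluster assembly.

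The interleukin-6 and STAT3 list had the lowest median, -0.44, with 3 of 7 tested members lower and 0 higher, beside 9.65% lower over all tested genes, and 2 lower with the length trend removed. Il6st, which encodes gp130, the signal-transducing chain of the interleukin-6 receptor, was listed at 7.497, 6.88, 6.76, 8.80 and 6.90 FPKM in labelled knockdown livers, against 10.02, 12.1, 13.5, 10.5 and 12.7 FPKM in control livers. The groups did not overlap, and Il6st fell with a log2 fold change of -0.61 (SE 0.10, limma adjusted p = 0.00818). Stat3, the factor that carries this signal to the Hamp promoter, was listed at 6.55, 8.14, 8.23, 7.89 and 7.06 FPKM in labelled knockdown livers, against 9.65, 10.3, 11.8, 12.97 and 11.8 FPKM in control livers. Its groups did not overlap either (log2 fold change -0.52, SE 0.09, adjusted p = 0.00944). Il6st and Stat3 were called in all 10 fits without 1 library and with the length trend removed (adjusted p = 0.0123 and 0.0293).

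Creb3l3, a membrane-bound factor of hepatocytes that can also activate Hamp, averaged 55.6 ± 6.14 FPKM in labelled knockdown livers and 75.8 ± 15.8 FPKM in control livers. Creb3l3 fell by the limma test (log2 fold change -0.42, adjusted p = 0.0477). It kept its call without 1 library in 1 fit of 10, and lost it with the length trend removed (0.0667) and with median-of-ratios scaling (0.0772). Il6 itself was listed at 0 to 0.065 FPKM and was not tested. Among 10 acute phase genes, which interleukin-6 raises in liver, 1 was higher and 1 lower, with a median of -0.09. Saa3 rose (log2 fold change 0.73, limma adjusted p = 0.0386), Fga fell (-0.41, 0.0414) and the other 8 did not pass. Their summed level was 2779 to 3809 FPKM in labelled knockdown livers and 3784 to 4478 FPKM in control livers. That sum mostly follows abundant genes. Fgg averaged 1048 FPKM in labelled knockdown livers and 1205 FPKM in control livers, and Saa3 7.71 and 4.46 FPKM. The part of these genes in the result was not tested.

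In the BMP and SMAD list, 2 of 19 tested members were lower and 0 higher, a share near the 9.65% of all tested genes that were lower, with a median of -0.12. Bmpr1a, a BMP receptor of hepatocytes, was listed at 4.46, 4.62, 4.37, 5.08 and 3.44 FPKM in labelled knockdown livers, against 6.06, 6.49, 6.00, 6.04 and 6.12 FPKM in control livers. Bmpr1a fell without overlap (log2 fold change -0.41, SE 0.08, limma adjusted p = 0.0132). Smad4, the partner of the receptor-activated SMAD proteins, was listed at 5.95, 6.97, 6.46, 8.49 and 6.32 FPKM in labelled knockdown livers, against 10.1, 10.2, 10.1, 9.41 and 8.34 FPKM in control livers. Smad4 fell (-0.44, SE 0.09, adjusted p = 0.0147), with labelled knockdown 4 and control 5 as the point of overlap. Both genes were called in all 10 fits without 1 library and with the length trend removed.

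Other parts of the BMP input did not pass the limma test. Hjv, the co-receptor hemojuvelin, averaged 63.5 ± 4.99 FPKM in labelled knockdown livers and 55.2 ± 4.05 FPKM in control livers (log2 fold change 0.20, adjusted p = 0.106). Tmprss6, the protease that removes it, averaged 105 ± 8.32 FPKM in labelled knockdown livers and 114 ± 10.6 FPKM in control livers (-0.12, 0.382). Bmp6, the ligand that liver endothelium makes when iron is high, averaged 0.744 ± 0.274 FPKM in labelled knockdown livers and 0.894 ± 0.268 FPKM in control livers (-0.12, 0.534). Smad7, an inhibitor that the pathway induces, averaged 2.38 ± 0.646 FPKM in labelled knockdown livers and 3.32 ± 1.04 FPKM in control livers (-0.34, 0.189).

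Id1, a target gene of BMP signalling, was listed at 31.1, 16.2, 8.30, 29.2 and 10.2 FPKM in labelled knockdown livers, against 24.7, 13.04, 14.5, 11.5 and 26.8 FPKM in control livers (log2 fold change -0.03, SE 0.36, limma adjusted p = 0.958). Labelled knockdown 1 and 4 held the highest values and labelled knockdown 3 the lowest, as for Hamp, and control 5 was the highest control in both genes. Labelled knockdown 5, by contrast, was high in Hamp and low in Id1. Of 8 tested markers of sinusoidal endothelium, 1 was lower and 0 were higher. Their summed level was 14.5 to 21.3 FPKM in labelled knockdown livers and 17.1 to 31.4 FPKM in control livers, and its part in the BMP genes was not tested.

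**Figure D3:**
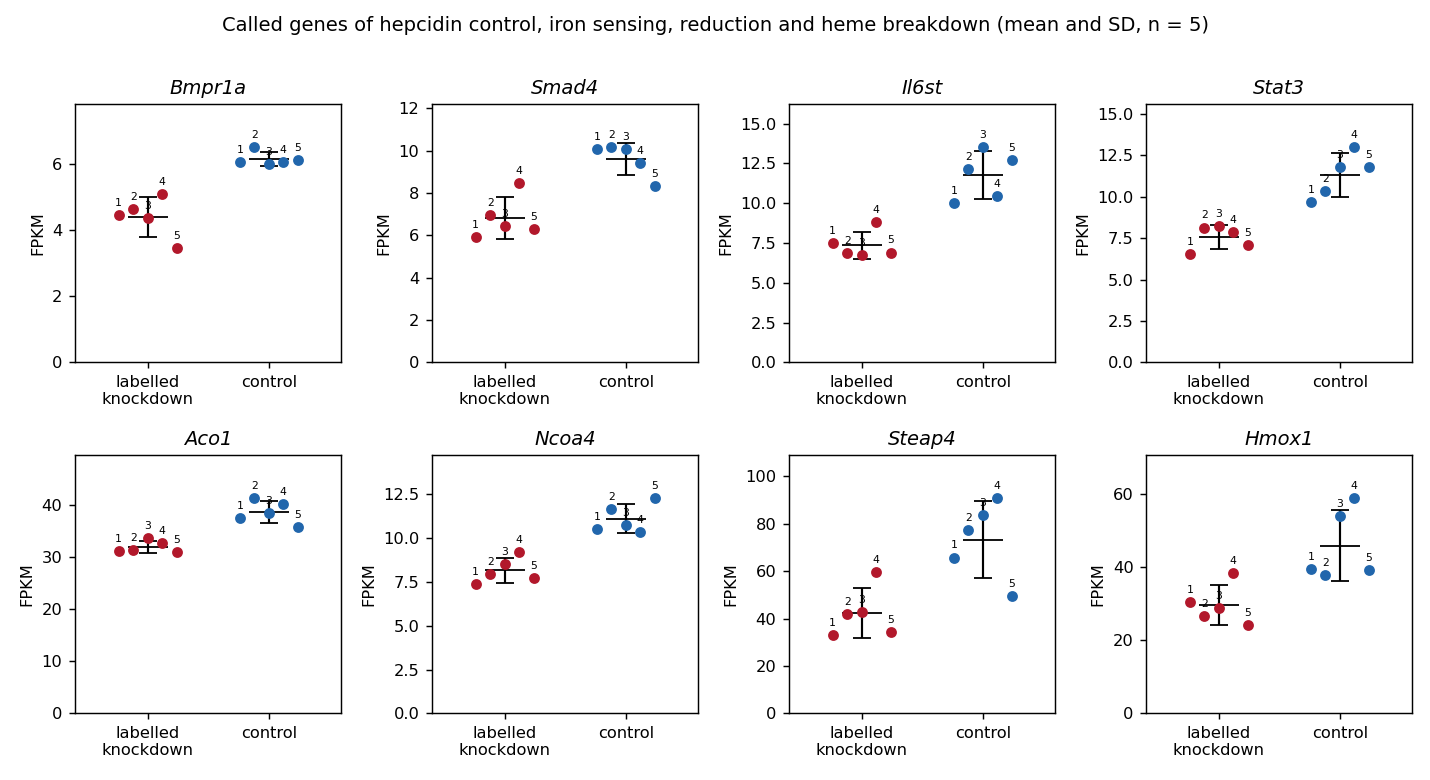
FPKM in each liver of 8 called genes, with labelled knockdown livers (red) left of control livers (blue), replicate numbers above the points, and bars for the mean and SD (n = 5 per group). Bmpr1a, Il6st, Stat3, Aco1 and Ncoa4 show no overlap, while labelled knockdown 4 reaches the control range for Smad4, Steap4 and Hmox1.

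The iron storage and sensing list had a median of -0.24, with 4 of 8 tested members lower and 0 higher, beside 9.65% lower over all tested genes. Once the length trend was removed, 1 of the 8 was lower. Aco1, which encodes iron regulatory protein 1, was listed at 31.1, 31.3, 33.6, 32.8 and 31.0 FPKM in labelled knockdown livers, against 37.5, 41.2, 38.4, 40.2 and 35.8 FPKM in control livers. It fell without overlap (log2 fold change -0.27, SE 0.06, limma adjusted p = 0.0225). Ireb2, which encodes iron regulatory protein 2, averaged 6.37 ± 0.442 FPKM in labelled knockdown livers and 7.82 ± 0.794 FPKM in control livers, and it fell too (-0.26, adjusted p = 0.0483). These are the proteins that bind the hairpins printed above. Neither call held with the length trend removed, with adjusted p of 0.101 for Aco1 and 0.198 for Ireb2. Ireb2 also lost its call with median-of-ratios scaling (0.0635). In fits without 1 library Aco1 was called in 7 of 10 and Ireb2 in 2 of 10.

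Ncoa4, the receptor that carries ferritin to the lysosome for iron release, was listed at 7.37, 7.95, 8.55, 9.22 and 7.74 FPKM in labelled knockdown livers, against 10.5, 11.7, 10.7, 10.4 and 12.3 FPKM in control livers. It fell without overlap (log2 fold change -0.40, SE 0.08, limma adjusted p = 0.0105), and was called in all 10 fits without 1 library and with the length trend removed (adjusted p = 0.0253). Cand1, a regulator of cullin ubiquitin ligases, averaged 5.20 ± 0.559 FPKM in labelled knockdown livers and 7.06 ± 0.670 FPKM in control livers (-0.38, adjusted p = 0.0167, and 0.0783 with the length trend removed).

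Of 13 tested genes of iron export, uptake and reduction, 1 was lower and 1 higher, near the shares over all tested genes, with a median of -0.10. Slc40a1, the exporter that hepcidin acts on, was listed at 12.2, 13.4, 10.8, 14.1 and 12.1 FPKM in labelled knockdown livers, against 14.1, 15.5, 16.1, 13.3 and 20.9 FPKM in control livers. The groups overlapped, and its log2 fold change of -0.32 (SE 0.12) did not pass the limma test (adjusted p = 0.0798). Steap4, a metal reductase, was listed at 33.2, 41.8, 42.8, 59.7 and 34.5 FPKM in labelled knockdown livers, against 65.8, 77.2, 83.6, 90.7 and 49.5 FPKM in control livers. Steap4 fell (-0.78, SE 0.18, adjusted p = 0.0204), with labelled knockdown 4 above control 5, and its adjusted p was 0.0511 without control 3. Slc25a28, an iron importer of mitochondria, averaged 9.70 ± 1.15 FPKM in labelled knockdown livers and 7.77 ± 0.632 FPKM in control livers and rose (0.28, adjusted p = 0.0468), a call kept in 2 of the 10 fits without 1 library. With the length trend removed it was called at 0.37 (adjusted p = 0.0233), and 2 of the 13 genes were higher and 1 lower.

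Of 22 tested genes of heme uptake, synthesis and breakdown, 4 were higher and 5 lower, beside 7.13% higher and 9.65% lower over all tested genes, with a median of -0.18. Removing the length trend left 2 higher and 1 lower. Hmox1, the inducible heme oxygenase that frees iron from heme, was listed at 30.5, 26.6, 28.8, 38.4 and 24.0 FPKM in labelled knockdown livers, against 39.5, 37.9, 54.0, 58.7 and 39.2 FPKM in control livers. It fell (log2 fold change -0.60, SE 0.15, limma adjusted p = 0.0242, and 0.0214 with the length trend removed), with labelled knockdown 4 above control 2 as the overlap. Its highest adjusted p with 1 library left out was 0.0592, without control 3, and 8 of those 10 fits called it. Macrophages express Hmox1 and Slc40a1 strongly. Of 7 tested markers of Kupffer cells and macrophages, Adgre1 (log2 fold change -0.95) and Cd5l (-1.01) fell and none rose, and the median over the 7 was -0.40. The 5 that did not pass ranged from -0.72 for Vsig4 to 0.70 for Marco. Their summed level was 75.8 to 124 FPKM in labelled knockdown livers and 115 to 191 FPKM in control livers, and its part in the result was not tested. In whole liver, fewer cells of a type and less RNA per cell cannot be told apart.

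Genes of heme synthesis went both ways. Alad, the second enzyme of the pathway, averaged 83.2 ± 3.38 FPKM in labelled knockdown livers and 65.1 ± 9.83 FPKM in control livers and rose (log2 fold change 0.36, limma adjusted p = 0.0361). Ppox, an oxidase near its end, averaged 8.01 ± 0.747 FPKM in labelled knockdown livers and 5.81 ± 0.572 FPKM in control livers and rose (0.41, adjusted p = 0.0130). Fech, which inserts iron to complete heme, averaged 8.67 ± 0.810 FPKM in labelled knockdown livers and 10.8 ± 0.764 FPKM in control livers and fell (-0.29, adjusted p = 0.0286). With the length trend removed Alad and Ppox kept their calls (adjusted p = 0.0458 and 0.00955) and Fech did not (0.147). In fits without 1 library Ppox was called in 10 of 10, and Alad and Fech in 4 of 10 each.

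The remaining called genes of the heme list were scavengers, transporters and a reductase. Hp, the hemoglobin scavenger haptoglobin, averaged 2622 ± 261 FPKM in labelled knockdown livers and 2041 ± 200.02 FPKM in control livers, without overlap, and rose (log2 fold change 0.36, limma adjusted p = 0.0460). Blvrb, a biliverdin reductase, rose (0.41, adjusted p = 0.0361). Lrp1, the receptor for hemopexin-bound heme (-0.39), Slc48a1, a heme transporter (-0.33), and Abcb6, a porphyrin transporter (-0.37), fell with adjusted p from 0.0192 to 0.0361. With the length trend removed, Hp, Blvrb, Lrp1, Slc48a1 and Abcb6 did not pass, with adjusted p from 0.0533 to 0.105. In fits without 1 library Abcb6 was called in 10 of 10, Lrp1 in 4, Slc48a1 in 3, and Hp and Blvrb in 2 each. The erythroid markers, which bear on hemoglobin and Alas2, had 0 of 5 tested members called, and their summed level was 37.1 to 99.2 FPKM in labelled knockdown livers and 40.9 to 156 FPKM in control livers. Slc4a1, an anion exchanger of red cells, was listed at 0 in all but 1 library. By contrast, Hba-a1 of the same list averaged 21.4 FPKM in labelled knockdown livers and 28.5 FPKM in control livers. Of the remaining marker lists, stellate cells had 2 of 8 tested members lower and cholangiocytes 0 of 4 tested called, and their part in the results was not tested.

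Of 20 tested genes of iron-sulfur cluster assembly, 3 were higher and 2 lower, beside 7.13% higher and 9.65% lower over all tested genes, with a median of 0.14. Removing the length trend left 2 higher and 0 lower. Fdxr, a reductase that supplies electrons to the process, averaged 14.2 ± 2.06 FPKM in labelled knockdown livers and 10.2 ± 0.546 FPKM in control livers and rose without overlap (log2 fold change 0.43, SE 0.09, limma adjusted p = 0.0166). Iscu, the scaffold on which the clusters form (0.28, adjusted p = 0.0360), and Bola3, a late assembly factor (0.33, 0.0367), rose as well. Nfs1, the desulfurase that supplies sulfur, fell (-0.37, 0.0353). With the length trend removed, Fdxr and Bola3 kept their calls (adjusted p = 0.0244 and 0.0484), and Iscu and Nfs1 did not (0.0853 and 0.0582). In fits without 1 library Fdxr was called in 10 of 10, Nfs1 in 5, Bola3 in 4 and Iscu in 3.

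**Figure D4:**
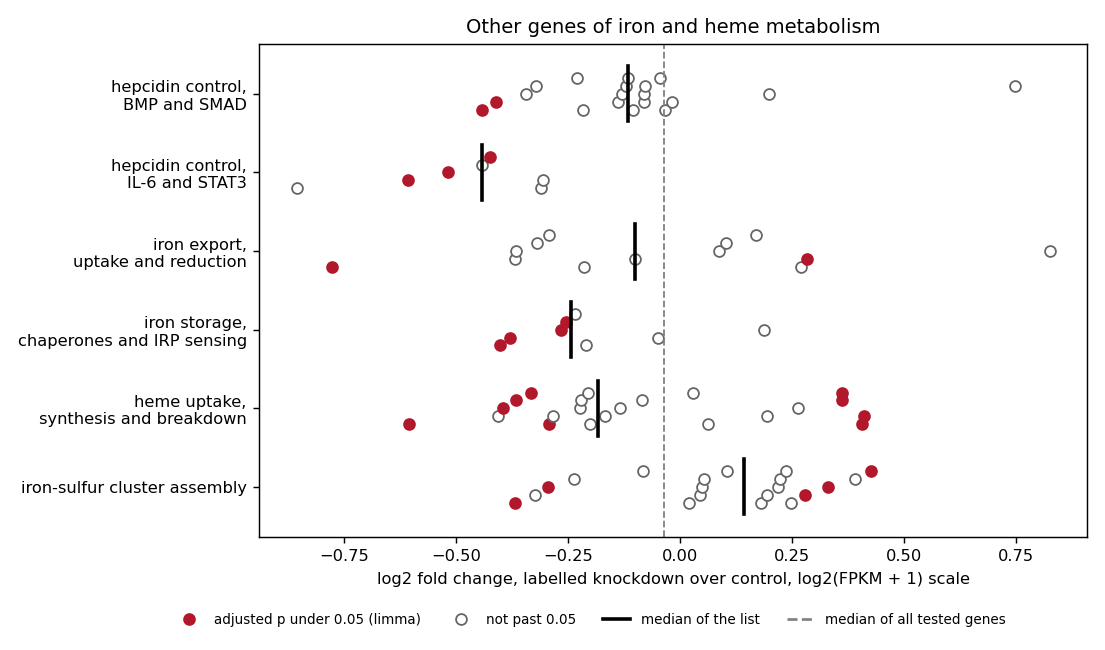
Log2 fold change of each tested gene of the 6 lists, labelled knockdown over control livers, on the log2(FPKM + 1) scale (n = 5 per group), with filled points for genes past an adjusted p of 0.05 (limma), black bars for list medians and a dashed line for the median of all tested genes (-0.04). The interleukin-6 and STAT3 list has its median at -0.44, and the iron-sulfur list has its median at 0.14.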

How the data were processed

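Per the labels' protocols, poly(A) liver RNA was made into dUTP strand-marked libraries. The tools named, without their roles, in the submitters' processing notes are cutadapt 1.9, HISAT2 2.0.4 and StringTie 1.3.4d. The build named there is human (GRCh38) while the identifiers are mouse; for the mouse build and annotation none is given in the sources used here. Deposited by the authors were FPKM values per library, with their own fold ratio (the ratio of group mean FPKM), its log2 value, p-value and q-value, from a test not given in the sources used here. Groups came from the sample titles, and 0 columns of sample values were left unused. Of low FPKM values, 12.2 to 14.1% per library were whole multiples of the value of 1 fragment (tolerance 0.02), so reads were not recovered, depth is not known and no counting interval is given. No identical libraries were found (0 pairs). Nothing says how libraries were handled in batches, so p-values measure the spread between these libraries. A difference in handling between the groups could not be told apart from the labels.

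Values were taken as log2(FPKM + 1), for genes with at least 0.5 FPKM in at least 5 libraries, and compared with limma 3.58.1 in R 4.3.3 (mean-variance trend, no covariates, two-sided, Benjamini-Hochberg over 13471 genes, called at 0.05). Fold changes on this scale understate those of low genes. The length trend was removed per library with a natural spline of 4 degrees of freedom on the longest GENCODE M21 transcript, which 97.9% of tested genes had. The fit was tested on simulated data. Members and lists were chosen with earlier results of these data known. Named genes were the members, Lgals3, the called genes of the lists (1 is not reported here) with Hjv, Bmp6, Tmprss6, Slc40a1, Hmox1, Id1 and Smad7 in any case, and the 5 genes most like Hamp; Hamp2, Il6, the ferritin copies, Alb and Slc4a1 were named beside them after their values were seen.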

Additional observations from a re-analysis of the deposited data

Results flagged for a closer look

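Among the groups of 5 livers checked for a sample far from its neighbours, 2 of 100 stood apart on the log2(FPKM + 1) scale, where chance gives about 1 in 20. Bmpr1a was at 6.49 FPKM in control 2, above the other control livers at 6.00 to 6.12 FPKM. Cand1 was at 8.22 FPKM in control 5, above the other control livers at 6.55 to 6.99 FPKM. Both genes fell in labelled knockdown livers, and both calls held without those libraries.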

How the results depend on the processing

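Over the whole table, 511 genes were higher and 682 lower with no filter on low values, 720 were lower with the length trend removed and 2047 with array weights. The number of members that fell, 2 in the fit as reported, was 0 with no filter, with median-of-ratios scaling and with the length trend removed, and 1 with the replicate number as a block (Slc11a2, adjusted p = 0.0376, while Slc39a14 had 0.0554 and Cp 0.0763). With array weights it was 3 (Slc11a2, Slc39a14 and Cp). Of the pathway lists, 2 genes were higher and 9 lower with no filter, 3 were higher under the replicate block, 7 were lower with the length trend removed, and 27 with array weights. The sign of Hamp turned to -0.032 with array weights (adjusted p = 0.955). Leaving out 1 library at a time gave 440 to 954 higher and 533 to 1733 lower genes, 0 to 1 higher and 0 to 2 lower members, and 2 to 7 higher and 7 to 20 lower list genes; the lowest whole-table counts were without control 3 (higher) and control 2 (lower). The log2 fold change of Lgals3 ranged from -0.093 to 0.26 and was below 0 without labelled knockdown 2 (-0.01) or control 5 (-0.093). Pairing by replicate number had no support: same-numbered libraries had correlations of -0.015 to 0.114, and 3 of 10 libraries were most like the one of their own number. FPKM gives no counts, so low genes such as Bmp6 and Il6 carry a precision that is not known. The causes of these shifts were not tested.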
